A study of Rattus norvegicus with 6 samples.

Results

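Slc2a1, Hk2, Gapdh, Ldha and Vegfa are genes of glucose use and of the response to low oxygen, and their transcripts were followed here across 6 samples of cultured rat vascular smooth muscle cells (rVSMCs), the contractile cells of the vessel wall. These 5 genes were chosen by Ensembl identifier from the 32883 identifiers of the count table, the choice did not use measured values in its rule, and all 5 passed the filter on low counts that left 12044 genes for testing. Their identifiers are ENSRNOG00000007284 (Slc2a1), ENSRNOG00000006116 (Hk2), ENSRNOG00000018630 (Gapdh), ENSRNOG00000013009 (Ldha) and ENSRNOG00000019598 (Vegfa). The symbols come with the gene selection, since the deposited tables carry identifiers alone. Both groups received a CRISPR-dCas9 system, in which a nuclease-dead Cas9 is led to a genomic site without cutting it. The 3 sg-MIAT samples (genotype label MIAT overexpression) had a guide to raise the long non-coding RNA MIAT, and the 3 sg-U6 samples (genotype label WT) a negative control guide. The labels give no strain, age, clone or treatment time, and do not state whether the 3 samples of a group are separate cultures, separate animals or repeats of 1 culture; the p-values cover only the spread among these libraries, which may be technical.

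Glucose enters most cells through facilitative transporters, is trapped by phosphorylation, passes through the glycolytic chain to pyruvate, and can be reduced to lactate, which regenerates the NAD+ that the chain needs. When oxygen is short, the hypoxia-inducible factors HIF-1α and HIF-2α escape degradation, pair with ARNT and bind a short core sequence near their targets, among them glycolytic enzymes, the glucose transporter and the angiogenic factor VEGF-A. Smooth muscle cells that leave the contractile state and divide are known for a raised use of glucose, and VEGF-A made by the vessel wall acts on endothelial cells.

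The factors' core sequence is usually written with ACGTG or GCGTG at its centre, so the 250 bases before each annotated start were searched for both 5-letter strings on either strand. RefSeq's promoter table (GRCr8) held a window for 5 of 5 genes, with 2 windows for Vegfa. ACGTG was found in the windows of Ldha, Slc2a1 and Gapdh, and not in that of Hk2 or in either window of Vegfa. Bases outside these windows were not searched, so its absence here does not show that a gene lacks the string near it. The 3 windows that hold ACGTG are shown because they display how differently the string is placed in genes of 1 pathway, with ACGTG or its reverse complement CACGT in capitals. The window of Ldha is chr1:106507842-106508091 on the plus strand, that of Slc2a1 chr5:138002272-138002521 on the plus strand, and that of Gapdh chr4:159652468-159652717 on the minus strand.
Ldha: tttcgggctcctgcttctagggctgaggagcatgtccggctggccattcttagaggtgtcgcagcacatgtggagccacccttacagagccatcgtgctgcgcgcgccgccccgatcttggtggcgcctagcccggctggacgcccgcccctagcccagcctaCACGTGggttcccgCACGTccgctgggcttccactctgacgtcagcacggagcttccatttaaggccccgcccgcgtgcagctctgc
Slc2a1: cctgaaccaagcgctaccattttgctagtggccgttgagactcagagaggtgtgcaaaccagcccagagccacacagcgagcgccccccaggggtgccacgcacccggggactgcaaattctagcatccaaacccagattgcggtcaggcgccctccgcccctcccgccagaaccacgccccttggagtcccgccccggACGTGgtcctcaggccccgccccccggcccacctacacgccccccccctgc
Gapdh: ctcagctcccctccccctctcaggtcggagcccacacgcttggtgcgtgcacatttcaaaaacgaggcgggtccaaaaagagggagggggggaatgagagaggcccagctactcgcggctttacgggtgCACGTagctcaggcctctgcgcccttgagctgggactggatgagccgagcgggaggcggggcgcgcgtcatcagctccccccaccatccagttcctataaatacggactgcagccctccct

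Ldha carried 3 matches, 2 of which overlap in the palindrome CACGTG, with first bases 87 and 86 bases before the start, and the other beginning 73 bases before it. Slc2a1 had 1 match 51 bases before the start, and Gapdh 1 match 121 bases before it. Among the 33469 windows of the same length, 16.6% held ACGTG and 25.9% held GCGTG, so either string is common. GCGTG occurred 3 times in Slc2a1, 2 times in Gapdh, 1 time in Ldha, and not in Hk2 or Vegfa. Such a match is a run of letters in this window, and no binding was measured in these samples. The submitters' processing notes name another build, Rnor_6.0, so the coordinates apply to GRCr8 alone.

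Libraries held 13128977 to 18257865 counts. Both samples numbered 1 lay apart from the others on the first principal component of log2 CPM, which held 65.2% of the variance, at -59.9 (sg-MIAT 1) and -69.7 (sg-U6 1) against 11.1 to 73.9 in the other 4. The edgeR fold change of each member is therefore also given without sg-U6 1, and for Ldha and Vegfa without both samples numbered 1. The level of MIAT and markers of smooth muscle or other vessel cells were not analysed here, because identifiers could not be paired with symbols. In RNA from whole cultures, a change in the share of cells of a kind and a change of RNA per cell cannot be told apart.

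No member differed between guides beyond the spread of replicates. The edgeR quasi-likelihood test, its p-values adjusted over all genes by the Benjamini-Hochberg method, called 0 of 5 members, and it called 0% of all 12044 genes. All 5 were fitted higher in sg-MIAT, by 1.10-fold (Hk2) to 1.46-fold (Vegfa), while 45.4% of all tested genes were fitted higher. Their median log2 fold change was 0.21, against -0.03 over all tested genes. The groups overlapped for each of the 5 in CPM (counts out of each 1000000 of the library, after TMM scaling), and 9.04% of all genes had groups that did not overlap. Together the 5 genes took 0.260%, 0.337% and 0.297% of the library in sg-MIAT 1, 2 and 3, and between 0.257% and 0.266% in the controls.

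**Figure D1:**
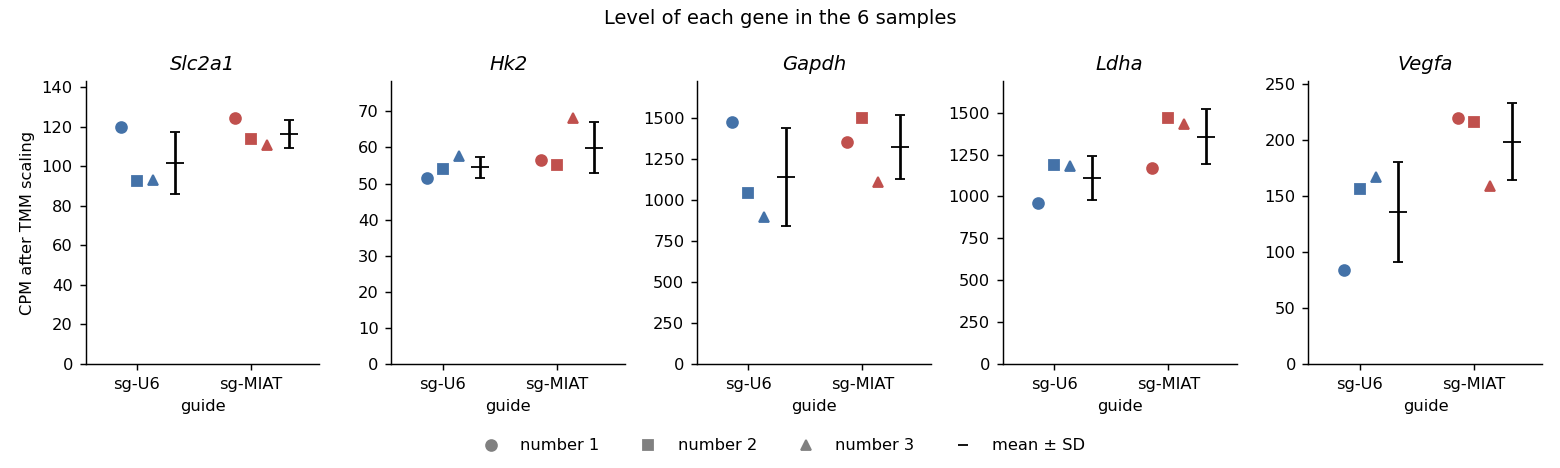
CPM after TMM scaling (linear axis from 0) of each gene in the 3 sg-U6 (blue) and 3 sg-MIAT (red) samples, with marker shape for the sample number and black bars for mean ± SD (n = 3). The groups overlap in every panel, and Vegfa in sg-U6 1, at 84.4 CPM, is the point farthest below the rest.

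Slc2a1 encodes GLUT1, the transporter that lets glucose enter the cell at a basal rate. Its CPM was 124.4, 113.96 and 110.5 in samples 1, 2 and 3 of sg-MIAT, against 119.8, 92.3 and 93.2 in those of sg-U6. The sg-MIAT samples lay close together, and sg-U6 1 stood among them, well above the other control samples. The sg-MIAT mean was 116.3 ± 7.24 CPM and the sg-U6 mean 101.8 ± 15.6 CPM (SD, n = 3 each). The edgeR log2 fold change was 0.19 ± 0.16 (SE), with a 95% interval of 0.874- to 1.49-fold and an adjusted p of 0.9995. Without sg-U6 1 it was 0.33 ± 0.14, with an unadjusted edgeR p of 0.0539 and an adjusted p of 0.402. That fit called 0 of all genes. At an unadjusted p under 0.05 it held 1470 of 12363 genes, against 477 of 12044 in the fit of all samples, so low unadjusted p-values were more common in it.

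Hk2 encodes hexokinase 2, the inducible enzyme that phosphorylates glucose and can sit on the mitochondrial surface. It was the member with the fewest reads, 660 to 1143 counts a sample. In the order of their numbers, the sg-MIAT samples stood at 56.5, 55.2 and 68.2 CPM and the sg-U6 samples at 51.6, 54.1 and 57.6 CPM. One sample, sg-MIAT 3, lay above a cluster formed by the other 5. The group means, 59.95 ± 7.13 and 54.5 ± 3.02 CPM (SD, n = 3), differed by an edgeR log2 fold change of 0.14 ± 0.15 (SE), an interval of 0.861- to 1.41-fold and an adjusted p of 0.9995. Without sg-MIAT 3 the edgeR log2 fold change was 0.04 ± 0.16, so most of the fitted difference came from that sample. Leaving out sg-U6 1 instead gave 0.11 ± 0.16 (adjusted p = 0.715). The exact Poisson 95% interval of Hk2 in sg-MIAT 3, 64.3 to 72.2 CPM, lay above that of the highest control, sg-U6 3, at 54.0 to 61.4 CPM, and covers counting error only.

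Gapdh encodes the enzyme that oxidises glyceraldehyde-3-phosphate in the middle of glycolysis, and is widely used as a reference transcript. Samples 1, 2 and 3 had 1349, 1498 and 1110 CPM with the MIAT guide, against 1475, 1043 and 896.6 CPM with the control guide. Its highest values fell in sg-MIAT 2, sg-U6 1 and sg-MIAT 1, a mix of both guides, and its lowest in sg-U6 3. The means of 1319 ± 196 and 1138 ± 301 CPM (SD, n = 3) gave an edgeR log2 fold change of 0.21 ± 0.26 (SE), with an interval of 0.758- to 1.77-fold and an adjusted p of 0.9995. Across the 6 samples Gapdh varied 1.67-fold, on 14628 to 27467 counts whose counting error was under 1%. The size of the fitted difference turned on single controls: the edgeR log2 fold change was 0.45 ± 0.22 (adjusted p = 0.409) without sg-U6 1 and 0.07 ± 0.27 (adjusted p = 0.999) without sg-U6 3.

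Ldha encodes the A subunit of lactate dehydrogenase, which turns pyruvate into lactate. The sg-MIAT samples 1, 2 and 3 held 1168, 1469 and 1433 CPM of it, and the sg-U6 samples 960.1, 1188 and 1182 CPM. The sample numbered 1 was the lowest in each group, and sg-MIAT 1 fell just under sg-U6 2 and 3, which is the only overlap of the groups. The means, 1357 ± 164 and 1110 ± 129.8 CPM (SD, n = 3), gave an edgeR log2 fold change of 0.29 ± 0.20 (SE), with an interval of 0.877- to 1.70-fold and an adjusted p of 0.9995. Without sg-U6 1 the edgeR log2 fold change fell to 0.20 ± 0.20 (adjusted p = 0.597). Without both samples numbered 1 it was 0.30 ± 0.19 (adjusted p = 0.657).

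Vegfa encodes vascular endothelial growth factor A, a secreted factor that drives growth and permeability of endothelium and a standard readout of hypoxia signalling. It measured 219.8, 216.6 and 158.9 CPM in samples 1, 2 and 3 of sg-MIAT, against 84.4, 156.5 and 166.7 CPM in those of sg-U6. One control, sg-U6 1, held the lowest level by far, sg-MIAT 1 and 2 the highest, and the remaining 3 samples of both guides lay within a narrow band. The means of 198.4 ± 34.3 and 135.8 ± 44.8 CPM (SD, n = 3) gave an edgeR log2 fold change of 0.55 ± 0.29 (SE), an interval of 0.898- to 2.38-fold and an adjusted p of 0.9995. Vegfa had the largest fitted difference of the 5, and an absolute log2 fold change above that of 82.3% of all tested genes. The edgeR log2 fold change was 0.30 ± 0.19 (adjusted p = 0.451) without sg-U6 1, and 0.22 ± 0.20 (adjusted p = 0.731) without both samples numbered 1.

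**Figure D2:**
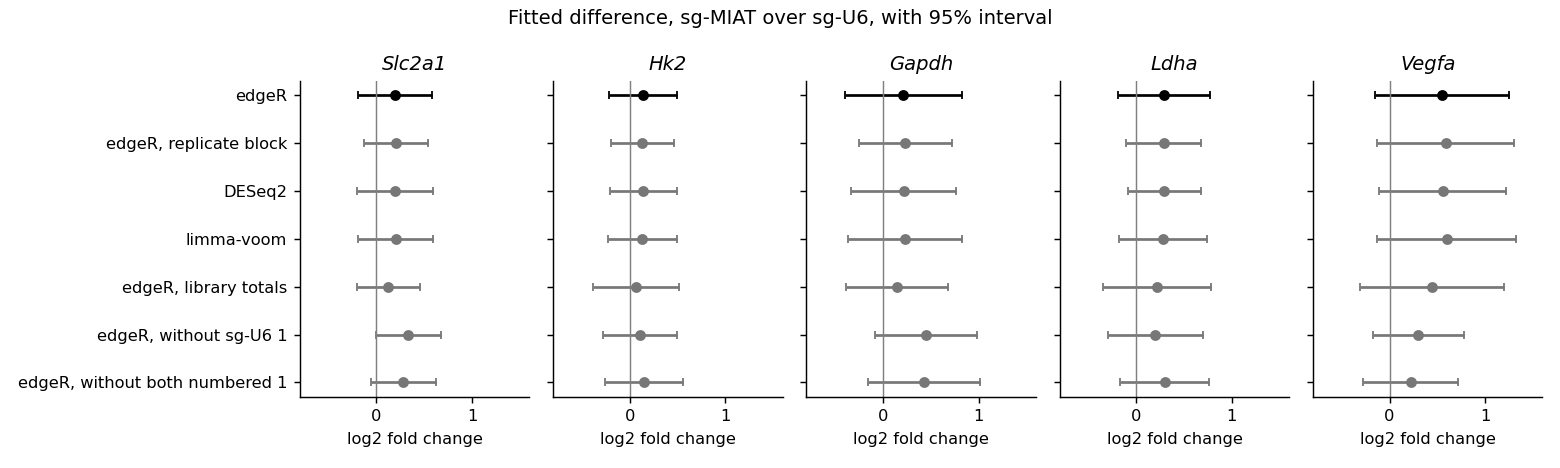
Fitted log2 fold change (horizontal axis, positive where sg-MIAT is higher) of each gene with its 95% interval under edgeR (black) and 6 other fits (grey). Every point drawn lies above 0 and every interval drawn includes 0. The Vegfa estimate moves from 0.55 to 0.22 without both samples numbered 1. Some DESeq2 fits not drawn gave intervals above 0 without passing the adjusted threshold. These were Vegfa with the block (0.019 to 1.17) and without sg-U6 3 (0.014 to 1.45), and Gapdh without sg-U6 1 (0.0067 to 0.904).

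An exact two-sided permutation test on log2 CPM gave p = 0.2 for Vegfa, 0.3 for Slc2a1 and Ldha, and 0.4 for Hk2 and Gapdh (adjusted p = 0.4 for each over the 5 genes). With 3 samples against 3 this exact test cannot go below 0.1. DESeq2 called 0 of 5 members as well (adjusted p = 0.9999 for each), where it called 0.443% of 13535 genes, 0.273% in the direction of higher levels in sg-MIAT. With the sample number as a block it again called 0 of 5, where it called 1.01% of all genes. At an unadjusted edgeR p under 0.05 there were 0 of 5 members and 3.96% of all genes. The intervals leave room for differences of moderate size in both directions: for Hk2, the narrowest, from 0.861- to 1.41-fold, and for Vegfa, the widest, from 0.898- to 2.38-fold. A missed threshold does not show that levels were alike.

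Replicate spread was small for most members beside the median of all tested genes, which include genes with far fewer reads. The coefficient of variation in sg-MIAT was 6.22% for Slc2a1, 11.9% for Hk2, 14.8% for Gapdh, 12.1% for Ldha and 17.3% for Vegfa, each under the median of 19.6% over all tested genes. In sg-U6 it was 15.4%, 5.54%, 26.4% and 11.7% for the first 4 in that order, under the median of 27.5%, while Vegfa reached 33.01%. Counting error alone was 0.603% to 3.89% over all members and samples. It was closest to the observed spread for Hk2 in sg-U6, at 3.26% to 3.69% a sample beside the coefficient of variation of 5.54%. All 5 members had an edgeR SE under the median of 0.30 for all genes. In the edgeR fit limited to genes at 10 CPM or more in 3 samples, the median SE was 0.229. Slc2a1 (0.145), Hk2 (0.152) and Ldha (0.205) lay under it there, and Gapdh (0.236) and Vegfa (0.309) above it.

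Numbers 1 to 3 recur in both groups, and between like numbers the difference of Ldha was even, a pattern singled out after its values were seen. The labels do not pair the samples, and for numbers 2 and 3 the crossed samples were at least as alike. Ldha was 1.22-fold higher in sg-MIAT 1 than in sg-U6 1, 1.24-fold for number 2 and 1.21-fold for number 3. The SD of these 3 log2 differences was 0.0156, as small as the counting error of a single difference (0.0139 to 0.0175), whereas the median SD over all tested genes was 0.346 and 24 of 12044 genes had a smaller one. With library totals in place of TMM the ratios were 1.13, 1.18 and 1.16 and their SD was 0.0315 on the log2 scale, above that counting error. With the number as a block, edgeR gave Ldha a log2 fold change of 0.29 ± 0.16 (SE) and an adjusted p of 0.729 (unadjusted p = 0.12). An exact sign-flip test of 3 pairs cannot go below 0.25, the value that Ldha, Hk2 and Slc2a1 reached.

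The other members were less even. Slc2a1 differed 1.04-, 1.23- and 1.19-fold for numbers 1, 2 and 3, and Hk2 1.09-, 1.02- and 1.18-fold, all higher in sg-MIAT. Gapdh gave 0.915-, 1.44- and 1.24-fold, with the first pair in the opposite direction. For Vegfa the ratio was 2.60 for number 1, 1.38 for number 2 and 0.953 for number 3, so the pair numbered 1 supplied most of its difference. With library totals in place of TMM, Slc2a1 in the first pair (0.968-fold) and Hk2 in the second (0.977-fold) turned to lower in sg-MIAT.

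**Figure D3:**
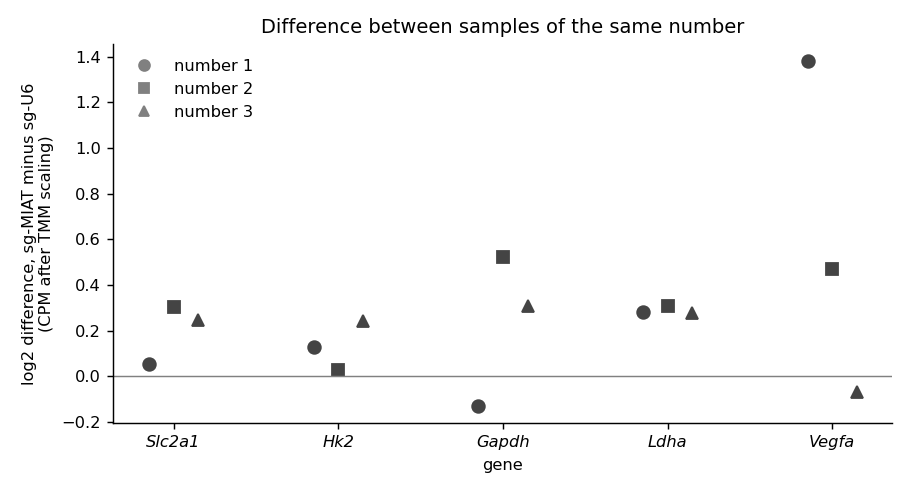
Difference in log2 CPM between the sg-MIAT and the sg-U6 sample of the same number (vertical axis), for each gene, with marker shape for the number. The 3 Ldha points coincide near 0.29, and those of Vegfa spread from -0.07 to 1.38.

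A split of the variance of log2 CPM over the 6 samples put the same pattern on 1 scale. For Ldha the guide took 49.6%, the sample number 50.3% and the remainder 0.0959%. The guide took 42.1% for Vegfa, 36.3% for Slc2a1, 28.2% for Hk2 and 18.3% for Gapdh, against a median of 9.49% over all tested genes. These are shares of each gene's own variance, which was small for most members. The SD of log2 CPM over the 6 samples was 0.138 (Hk2), 0.183 (Slc2a1), 0.225 (Ldha), 0.300 (Gapdh) and 0.501 (Vegfa), beside a median of 0.369. The sample number took 53.5% for Slc2a1, 59.8% for Hk2 and 57.2% for Gapdh, near the median of 60.2%, and 15.2% for Vegfa. In edgeR's test of the sample number, 0 of 5 members had an unadjusted p under 0.05, where 24.8% of all genes did, and no gene of all 12044 passed after adjustment (0%).

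The 5 genes did not share 1 profile over the samples. Slc2a1 and Gapdh had sg-MIAT 1, sg-MIAT 2 and sg-U6 1 as their 3 highest samples and sg-U6 2 and 3 as their 2 lowest. Ldha, Hk2 and Vegfa had sg-U6 1 as their lowest sample. The highest sample was sg-MIAT 3 for Hk2, sg-MIAT 2 for Ldha and Gapdh, and sg-MIAT 1 for Slc2a1 and Vegfa. In sg-U6 1, then, the transporter and Gapdh were near the top of their range while the hexokinase, Ldha and Vegfa were at the bottom.

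Because Gapdh is a common denominator in expression assays, the others were also expressed as a percentage of its counts in the same sample, a measure that no scaling of library size can alter. Ldha counts were 86.6%, 98.1% and 129.1% of Gapdh in the sg-MIAT samples, by number, against 65.1%, 113.9% and 131.9% in the controls. Between like numbers, this Ldha ratio was higher in sg-MIAT for number 1 and lower for numbers 2 and 3. The uneven differences of Gapdh itself enter each ratio, so this says nothing further about the evenness of Ldha in CPM. The mean log2 difference of the Ldha ratio was 0.05, and its range over samples was 2.03-fold. Vegfa was at 16.3%, 14.5% and 14.3% of Gapdh in sg-MIAT and at 5.72%, 15.01% and 18.6% in sg-U6, with 1 control far below the rest and another above all sg-MIAT samples. Slc2a1 ran from 7.61% to 10.4% and Hk2 from 3.69% to 6.14% in sg-MIAT and 3.50% to 6.43% in sg-U6. On this scale the log2 difference was -0.03 for Slc2a1 and -0.10 for Hk2, opposite in sign to their fitted fold changes, and 0.36 for Vegfa. None of the 4 ratios differed between guides beyond the spread of replicates (exact two-sided permutation p = 0.8 for Slc2a1, 0.9 for Hk2 and Vegfa and 1 for Ldha, adjusted p = 1 for each).

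**Figure D4:**
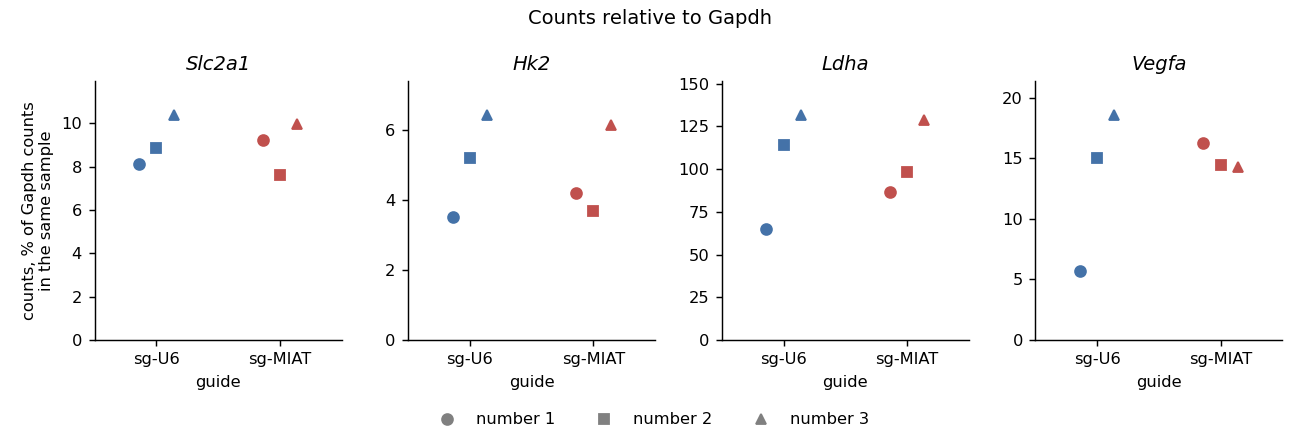
Counts of each gene as a percentage of Gapdh counts in the same sample (linear axis from 0, not corrected for gene length), by guide and sample number. Ldha ranges from 65.1% to 131.9% within the sg-U6 group alone, and Vegfa in sg-U6 1 lies at 5.72%.

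Likeness to the set was measured as Pearson's r over the 6 samples with the mean of the 5 standardised profiles of log2 CPM, as a description with no test. That mean profile was between 0.43 and 0.64 in the sg-MIAT samples and between -0.55 and -0.52 in the sg-U6 samples. The members themselves reached r = 0.75 (Ldha), 0.65 (Vegfa), 0.58 (Slc2a1), 0.52 (Hk2) and 0.44 (Gapdh). Each member is part of that mean, which raises its own r, so these values do not show a shared profile. Between pairs of members, r ran from -0.39 (Hk2 with Gapdh) to 0.86 (Slc2a1 with Gapdh). The nearest genes outside the set were ENSRNOG00000024145 and ENSRNOG00000017157, both with r = 0.993. ENSRNOG00000024145 stood at 10.9, 12.1 and 11.9 CPM in the sg-MIAT samples, by number, against 7.74, 7.73 and 7.36 CPM in the controls. ENSRNOG00000017157 ran from 1.54 to 1.74 CPM with the MIAT guide and from 0.492 to 0.613 CPM with the control guide. Its control levels rest on few reads, near the filter's minimum count of 10, and it passed the filter through the sg-MIAT samples, where it is higher. Both were selected for this pattern in the same samples, and both had an adjusted edgeR p of 0.9995.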

How the data were processed

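Per the labels' protocols, polyadenylated RNA was selected from total RNA, made into libraries with a dUTP-marked second strand and read as paired ends. HISAT2, DESeq2 and the build Rnor_6.0 appear in the submitters' processing notes. How reads were counted, on which annotation release and with which strand setting is not stated in these sources, and Gapdh, which has many processed pseudogenes, is therefore uncertain to that extent. The authors deposited raw counts per Ensembl gene, and a second table that is named for FPKM but holds CPM: all but 5 genes, none of them a member, equal count over library total to a relative tolerance of 0.001. Of the deposited CPM values above 0, 99.985% gave whole reads to within 0.01, and edgeR on those reads called 0 genes.

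The test was edgeR 4.0.16 (R 4.3.3; quasi-likelihood F test, TMM, minimum count 10, minimum total 15, guide as the only term, Benjamini-Hochberg over 12044 genes, threshold 0.05). SEs are the absolute log2 fold change over the square root of F, and 95% intervals use edgeR's total degrees of freedom. Alternatives used DESeq2 1.42.0, limma 3.58.1, other scalings and filters, the sample number as a block, and samples left out. No 2 libraries were duplicates (chi-square per degree of freedom of at least 20.96). The lowest value joined samples of different guides, sg-MIAT 3 and sg-U6 2. Within a guide the lowest was 43.4, for sg-U6 2 with sg-U6 3. Across genes, how far samples with the same number departed from their group mean correlated at 0.730, 0.126 and 0.334 for numbers 1, 2 and 3, all above 0.1, so the numbers were treated as pairing the samples. The labels state no such pairing, and crossed samples were at least as alike: sg-MIAT 2 with sg-U6 3 reached 0.630, and sg-MIAT 3 with sg-U6 2 reached 0.337. The ratios by number, the sign-flip test, the block fits and the variance split all rest on this uncertain pairing of numbers 2 and 3. Members and lists were chosen with earlier results of these data known. All 5 members are named, with the non-member genes most like their mean profile, limited to 2 as identifiers had no symbols. The wider glycolysis and hypoxia lists and the cell type markers were not analysed here for the same reason. Poisson intervals cover counting error only.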

Additional observations from a re-analysis of the deposited data

How the results depend on the processing

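Each member was refitted under 25 alternatives, 15 planned and 10 chosen after seeing the data (edgeR on reads recovered from CPM, DESeq2 with the block, fits without both samples numbered 1, DESeq2 leaving out samples). All 125 fitted values stayed above 0 and none passed the threshold, with a smallest adjusted p of 0.335 (Gapdh, DESeq2 without sg-U6 1). The alternatives reuse the same samples, so this is no independent support. Unadjusted p-values under 0.05 came from 3 DESeq2 fits: 0.0429 for Vegfa with the block, 0.0456 for Vegfa without sg-U6 3 and 0.0467 for Gapdh without sg-U6 1. Over all genes, the same fits had 948, 484 and 1858 genes under that unadjusted cut, so such values were common in them. With 1 sample left out, edgeR log2 fold changes ran from 0.13 to 0.33 for Slc2a1, 0.04 to 0.21 for Hk2, 0.07 to 0.45 for Gapdh, 0.20 to 0.38 for Ldha and 0.30 to 0.72 for Vegfa. Library totals in place of TMM lowered them to 0.12, 0.07, 0.15, 0.22 and 0.44 in that order, and the median of all genes from -0.03 to -0.10.

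Over all genes, edgeR called 0 (477 at an unadjusted p under 0.05), also with the replicate block (918 unadjusted) and in each edgeR and limma alternative. DESeq2 called 60 genes, 130 with the replicate block, 120 without both samples numbered 1, and 13 to 218 with 1 sample left out (13 when that was sg-MIAT 1 or sg-U6 2, 16 for sg-MIAT 2, 39 for sg-U6 3, 171 for sg-MIAT 3 and 218 for sg-U6 1). The cause of this gap was not tested. The block changed no call of a member in edgeR or DESeq2. The count of 0 members with an adjusted p under 0.05 for the sample number was the same with library totals.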
